A study of Mus musculus with 2 samples.

Results

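Described here are 9 genes that mark upper layer neurons of the cerebral cortex or neurons that project through the corpus callosum: Cux1, Cux2, Rorb, Pou3f1, Pou3f2, Pou3f3, Lhx2, Foxp1 and Mdga1. They were chosen by name from a list of known markers, and all 9 were found among the 55536 annotated mouse genes of the tables. Total RNA was sequenced in 2 libraries of left cerebral cortex, taken at an age of 4 days from female B6CASTF1/J mice, which are F1 hybrids of C57BL/6J and CAST/EiJ; the labels name no treatment and no engineered allele. The labels call the libraries biological replicates 1 and 2 and number the females separately, but give both the same donor identifier, so it is not settled that they come from separate animals, and the spread between them may be technical. Both libraries form 1 group, no condition was contrasted, and no test between groups was made. The tissue was taken whole, so each value is a mixture over the cell types of the cortex, and fewer cells of a type and less RNA per cell cannot be told apart.

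The mammalian neocortex is built of layers whose neurons differ in their targets. Upper layer neurons mostly connect cortical areas, many of them across the corpus callosum to the other hemisphere, whereas deep layer neurons send many of their axons out of the cortex. Of the 9 genes, 8 encode transcription factors: Cux1 and Cux2 carry Cut repeats and a homeodomain, Pou3f1, Pou3f2 and Pou3f3 a POU-specific domain and a homeodomain, Lhx2 LIM domains and a homeodomain, Foxp1 a forkhead domain, and Rorb is an orphan nuclear receptor known as a layer 4 marker. Mdga1 encodes a surface protein tethered to the membrane by a glycolipid anchor that binds neuroligins.

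Of the 9 genes, 6 carry a homeobox, and its most conserved stretch shows which of them are close relatives. Each line below gives 60 coding bases of one transcript, 5′ to 3′, from GENCODE M21 on GRCm38. The capitals mark the 6 codons of the recognition helix motif that opens with tryptophan and phenylalanine and holds asparagine and arginine further on. The stretch lies at chr4:124658832-124658891 (plus strand) for Pou3f1, chr4:22486890-22486949 (minus strand) for Pou3f2 and chr1:42698469-42698528 (plus strand) for Pou3f3. It spans an exon junction in the other 3, between chr5:136275448-136279470 (minus strand) for Cux1, chr5:121861363-121864687 (minus strand) for Cux2 and chr2:38360083-38368880 (plus strand) for Lhx2.
Pou3f1-201: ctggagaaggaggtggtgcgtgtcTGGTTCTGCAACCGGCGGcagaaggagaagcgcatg
Pou3f2-201: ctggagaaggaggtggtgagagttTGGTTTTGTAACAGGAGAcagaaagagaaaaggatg
Pou3f3-201: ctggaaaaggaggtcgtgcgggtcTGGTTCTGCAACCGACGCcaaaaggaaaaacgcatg
Cux1-201: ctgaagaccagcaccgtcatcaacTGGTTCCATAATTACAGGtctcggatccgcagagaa
Cux2-202: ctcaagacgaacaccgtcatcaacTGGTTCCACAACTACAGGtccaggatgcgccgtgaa
Lhx2-201: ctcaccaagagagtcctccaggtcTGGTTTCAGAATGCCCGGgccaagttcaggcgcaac
Within the POU genes, 52 of 60 bases are identical between Pou3f1 and Pou3f3, 48 between Pou3f1 and Pou3f2 and 44 between Pou3f2 and Pou3f3. Cux1 and Cux2 share 50 of 60. Across these families the identity drops to between 20 and 32 of 60.

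The deposited gene tables (the first table, with expected counts and TPM, a level per transcript length) summed to 29310517 counts in replicate 1 and 28844648 in replicate 2. Of these counts, 0.145% fell on the 9 genes in each library, and the limit set by a count of 0 was 0.102 ppm of the counts in replicate 1 and 0.104 ppm in replicate 2. All 9 genes were detected, which here means that neither library fell below 1 TPM, against 27.6% of all annotated genes and 59.6% of nuclear protein-coding genes. The tissue label was checked on 6 markers of cortical excitatory neurons, all of which were detected at 20.8 to 142 TPM, with Slc17a7, the vesicular glutamate transporter of cortical neurons, highest and Emx1, a dorsal forebrain homeobox gene, lowest. Markers of neighbouring regions were present too: the 8 striatal markers summed to 104 TPM in replicate 1 and 109 in replicate 2, the 6 thalamic markers to 67.1 and 70.4 TPM, and the 6 hippocampal markers to 81.1 and 86.7 TPM. In these lists 8 of 8, 5 of 6 and 5 of 6 genes were detected, and none was at 0. Slc17a6 alone gave 28.4 and 29.9 TPM of the thalamic sum, and Zbtb20 alone gave 43.2 and 46.4 TPM of the hippocampal sum. The lowest of these 2 lists were Gbx2 at 0.66 and 0.47 TPM and Lhx5 at 0.87 and 0.69 TPM. Whether this RNA came from cells of those regions, and their part in the levels of the 9 genes, was not tested.

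Foxp1 was the most abundant of the 9 genes and Pou3f1 the least. Foxp1 stood at 96.8 and 105 TPM in replicates 1 and 2, Cux2 at 78.0 and 90.4 TPM, and Cux1 at 76.3 and 81.0 TPM. Lhx2 followed at 54.7 and 54.6 TPM, Pou3f3 at 49.7 and 50.5 TPM, and Mdga1 at 46.4 and 46.1 TPM. These levels put 92.8% of all detected genes below Foxp1 and 81.0% below Mdga1. The lowest levels were those of Rorb at 27.2 and 33.5 TPM, Pou3f2 at 22.7 and 24.8 TPM, and Pou3f1 at 22.9 and 21.1 TPM. The median over the 9 genes was 50.1 TPM, beside 14.5 TPM over the 15304 detected genes. Among the 8 neighbours in this order, only 2 pairs had a mean log2 ratio of TPM + 1 of at least 0.5 over the libraries and values that did not overlap. Cux1 over Lhx2 averaged 0.51 (0.47 in replicate 1 and 0.56 in replicate 2), and Mdga1 over Rorb averaged 0.60 (0.75 and 0.45), so each was under 0.5 in 1 library. Cux2 and Cux1 overlapped, as did Pou3f2 and Pou3f1. The library values of the remaining 4 neighbours did not overlap, but their mean was under 0.5. Of these, Pou3f3 and Mdga1 did overlap in the deposited lower and upper bounds of TPM. Those bounds were 46.9 to 49.1 and 47.5 to 49.8 TPM for Pou3f3 in replicates 1 and 2. For Mdga1 they were 42.6 to 52.1 and 42.3 to 52.7 TPM. The bounds of the other remaining neighbours did not overlap within a library.

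**Figure D1:**
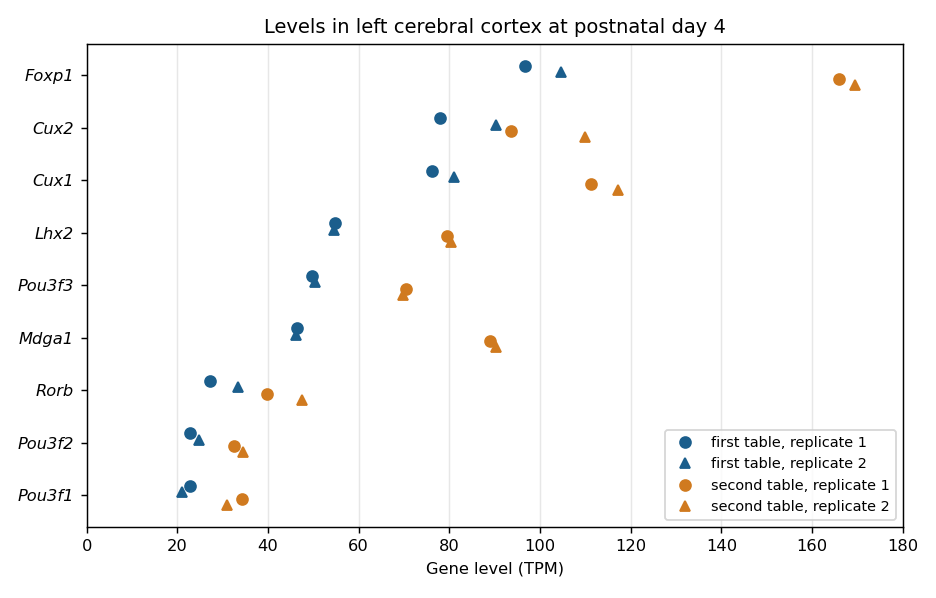
Level of each of the 9 genes in TPM (horizontal axis) in replicate 1 (circles) and replicate 2 (triangles), from the first table (blue) and the second table (orange). Foxp1 is highest in both tables and Pou3f1 and Pou3f2 are lowest; Mdga1 stands below Lhx2 in the first table (46.2 against 54.7 TPM) and above it in the other (89.7 against 79.9 TPM).

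Cux1 (ENSMUSG00000029705.17) spans chr5:136248135-136567490 on the minus strand, with 14 annotated transcripts, and averaged 78.6 ± 3.31 TPM (SD, n = 2). The locus is known to encode, beside the homeodomain protein, CASP, a Golgi membrane protein that shares the first part of the chain and lacks the Cut repeats and the homeodomain. The tables hold both kinds of transcript. Cux1-201, with 4278 coding bases and the homeobox motif, and Cux1-211, with 2028 coding bases and no motif, share 1249 coding bases and then run into different exons. The last shared 30 bases (lower case) and the first 30 of each branch (capitals) lie between chr5:136312979-136314336 for Cux1-201 and chr5:136258011-136314336 for Cux1-211, both on the minus strand, and are shown because they set the kinds of transcript apart:
Cux1-201: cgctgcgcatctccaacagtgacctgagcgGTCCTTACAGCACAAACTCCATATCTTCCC
Cux1-211: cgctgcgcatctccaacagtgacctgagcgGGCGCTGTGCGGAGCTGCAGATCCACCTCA

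Most Cux1 molecules, as TPM counts them, were of the kind without the homeobox. The 3 coding transcripts that end at the far 3′ end of the gene, Cux1-211 among them, held 65.2% and 57.9% of Cux1 TPM in replicates 1 and 2, which is 49.7 and 46.9 TPM. The 5 coding transcripts with the homeobox motif held 25.1% in each library, or 19.2 and 20.3 TPM. In both libraries the far-end transcripts lay above the homeobox transcripts, by more than the spread between libraries. In reads the order was the other way: the homeobox transcripts took 56.2% and 55.9% of the counts, against 41.1% and 38.5% for the far-end transcripts. Cux1-201 is 12862 bases long and Cux1-211 is 2831, and TPM divides counts by length. The second table, made by another method, gave 59.7% and 51.8% of TPM to the far-end transcripts and 25.9% and 24.9% to the homeobox transcripts. Cux1-211 alone held 51.2% and 54.3% of TPM in the first table. Cux1-207, which adds 6 coding bases to it (2034 against 2028), held 12.6% in replicate 1 and 2.02% in replicate 2, with posterior SDs of 173 and 90.7 on counts of 509 and 82.2, so this split within the far-end group is loosely fixed. Cux1-208, a fragment with no motif, held 7.13% and 10.9%.

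**Figure D2:**
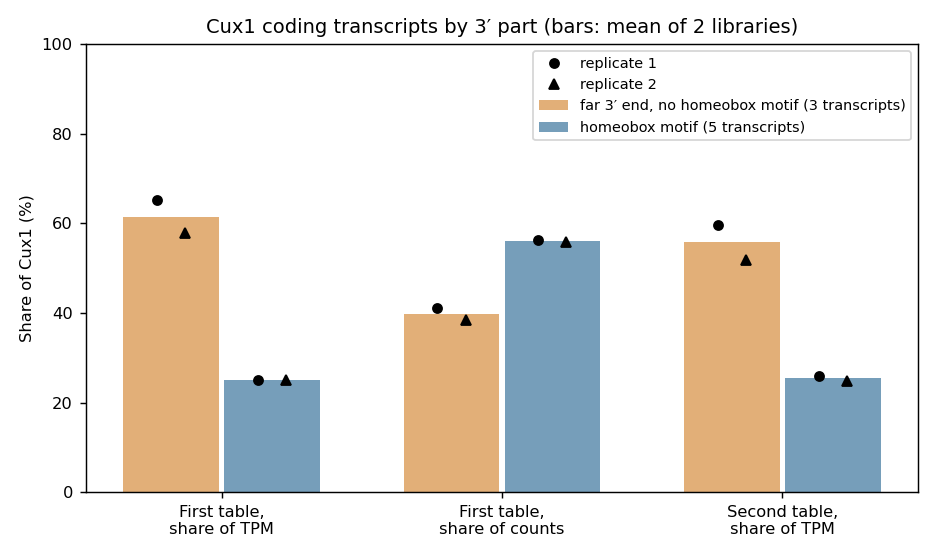
Share of Cux1 (percent, vertical axis) held by the 3 coding transcripts that end at the far 3′ end without the homeobox motif (orange) and by the 5 coding transcripts with the motif (blue); bars are means of 2 libraries, circles replicate 1 and triangles replicate 2. The far-end transcripts lead by TPM in both tables (61.5% against 25.1% and 55.8% against 25.4%), and the homeobox transcripts lead by counts (56.1% against 39.8%).

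Cux2 (ENSMUSG00000042589.18, chr5:121856366-122050102, minus strand) averaged 84.2 ± 8.73 TPM (SD, n = 2). As gene totals, Cux1 and Cux2 differed by less than the spread between libraries. The log2 ratio of Cux1 over Cux2 was -0.03 and -0.16 for replicates 1 and 2, and had the other sign by the second table (0.25 and 0.09). Of the 11 Cux2 transcripts, Cux2-202 led in the first table at 27.5% and 25.3% of TPM, and Cux2-201 led in the second at 39.1% and 35.7%. Cux2-202, Cux2-201 and Cux2-210 have the same 4278 coding bases and differ outside them. Cux2-210 held 14.5% and 12.9% by the first table and was near 0 by the second. Together these 3 transcripts took 91.6% and 90.1% of Cux2 counts but 54.2% and 50.8% of TPM. They carry the homeobox motif and summed to 42.3 and 45.9 TPM, against 19.2 and 20.3 TPM for the Cux1 homeobox transcripts. By the second table these sums were 66.5 and 70.7 TPM for Cux2 and 28.8 and 29.2 TPM for Cux1. The closeness of the gene totals therefore did not extend to the homeobox transcripts, where Cux2 lay above Cux1 in both libraries. Transcripts annotated as non-coding held 30.1% and 38.3% of Cux2 TPM, against medians of 13.2% and 15.2% over 11873 detected protein-coding genes with several transcripts, though they took 7.40% of its counts on average. Among them were the retained-intron transcript Cux2-211, at 10.8% and 13.9% of TPM, and the processed transcript Cux2-204, at 7.40% in replicate 1 and a higher share in replicate 2.

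Rorb (ENSMUSG00000036192.15, chr19:18930605-19111196, minus strand) averaged 30.3 ± 4.42 TPM (SD, n = 2), 2.60-fold above its relative Rora on the TPM + 1 scale (log2 1.41 and 1.34). Rorb-203, the only transcript from the distal start, held 91.9% and 85.2% of Rorb TPM, and 91.2% and 85.7% in the second table. The 4 transcripts of the proximal start, where Rorb-202 begins 110079 bases downstream of Rorb-203, held together 8.08% and 14.8%. Their share did not overlap that of the distal start in either library. The starts also differ in the coding bases they lead into. Rorb-203 opens with 7 coding bases of its own and Rorb-201 with 40, in capitals, before the shared bases in lower case, which lie at the far side of an intron; Rorb-202 starts at a later in-frame codon and lacks the first 222 coding bases of Rorb-203. Rorb-201 and Rorb-202 were singled out after their values were seen.
Rorb-203 (chr19:18988097-19110558): ATGCGAGcacaaattgaagtgatacca
Rorb-201 (chr19:18988097-19001046): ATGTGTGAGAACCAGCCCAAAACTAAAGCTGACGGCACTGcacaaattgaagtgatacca
Rorb-202 (chr19:18977976-18983354): atgtcaagagatgctgtaaa
Rorb-201, the form known from retina and pineal gland, was listed at 0 in both libraries of the first table and at 0.0562 and 2.2e-05 TPM in the second. Rorb-202 stood at 1.05 and 2.52 TPM. Its posterior SDs were 35.91 and 40.53 on first-table counts of 56.16 and 128.59. Those of Rorb-201 were 35.98 and 42.5 on counts of 0, so the reads given to Rorb-201 and Rorb-202 are loosely fixed. Because the data bear on both starts, their promoters are shown as RefSeq gives them on GRCm38.p6, from 250 bases before to 50 after the start, with each CG in capitals. The distal one lies at chr19:19111147-19111446 and the proximal one at chr19:19001068-19001367, both on the minus strand.
Distal: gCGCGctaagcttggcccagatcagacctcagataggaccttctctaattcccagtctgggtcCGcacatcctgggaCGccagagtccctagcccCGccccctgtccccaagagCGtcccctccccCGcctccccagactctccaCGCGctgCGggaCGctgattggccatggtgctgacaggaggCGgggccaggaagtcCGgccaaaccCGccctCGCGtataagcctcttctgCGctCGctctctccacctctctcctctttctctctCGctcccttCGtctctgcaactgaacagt
Proximal: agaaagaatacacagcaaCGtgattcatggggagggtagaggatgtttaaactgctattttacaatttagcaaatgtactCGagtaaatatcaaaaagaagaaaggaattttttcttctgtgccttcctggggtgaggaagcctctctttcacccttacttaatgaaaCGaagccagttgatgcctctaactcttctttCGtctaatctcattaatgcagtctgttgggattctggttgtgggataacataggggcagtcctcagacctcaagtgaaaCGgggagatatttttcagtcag
The distal promoter, to which most of the RNA was assigned, holds 20 CG and the proximal one 5, where the median over 32851 promoters of this length is 7. Of all promoters there, 73.5% hold fewer CG than the distal one and 38.0% hold fewer than the proximal one.

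The 3 POU genes have 1 exon and 1 annotated transcript each, so their levels rest on no division between isoforms. Pou3f3 (ENSMUSG00000045515.3, chr1:42695768-42703176, plus strand), also called Brn1, averaged 50.1 ± 0.566 TPM, Pou3f2 (ENSMUSG00000095139.2, chr4:22482780-22488366, minus strand), also called Brn2, averaged 23.8 ± 1.48 TPM, and Pou3f1 (ENSMUSG00000090125.3, chr4:124656807-124660655, plus strand), also called Oct6 or Scip, averaged 21.985 ± 1.29 TPM (SD, n = 2 each). Pou3f1 lay below Pou3f3 by a log2 ratio of -1.08 and -1.22 in replicates 1 and 2. Pou3f2 lay below Pou3f3 by -1.09 and -0.99, which falls just short of a log2 ratio of 1 in replicate 2. Pou3f1 and Pou3f2 did not separate (0.01 and -0.23). Their POU regions are 82.3% to 86.3% identical over 468 to 483 aligned coding bases, and the longest identical run between any pair was 38 bases, so no stretch of 100 bases was shared. Of 11 other POU genes 5 were detected, beside 59.6% of nuclear protein-coding genes, and the median over the 11 was 0.215 TPM. Pou6f1 was highest at 61.9 ± 0.629 TPM (SD, n = 2), Pou2f1 next at 12.3 ± 2.06 TPM, and Pou4f3 lowest at 0 and 0.02 TPM. Pou3f4, the remaining gene of this class, stood at 3.84 and 4.55 TPM, and Pou3f2 was 4.78-fold above it on the TPM + 1 scale. Next to Pou3f3, the non-coding RNA Pantr1 starts on the opposite strand 926 bases away and stood at 84.9 and 82.0 TPM, above Pou3f3 in both libraries. In counts the order was the other way, 790 and 753 for Pantr1 against 7053 and 6824 for Pou3f3. Gm2164, which overlaps the start of Pou3f1 on the other strand, stood at 3.64 and 4.99 TPM; whether counting used the strand is not given in the sources used here, so reads of such an overlap may fall to either gene.

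Lhx2 (ENSMUSG00000000247.11, chr2:38339281-38369733, plus strand), which keeps cortical progenitors on a cortical course and stays on in upper layer neurons, averaged 54.7 ± 0.0707 TPM (SD, n = 2). Its transcripts start at positions 11478 bases apart. Lhx2-201, from the downstream start, held 50.3% and 46.7% of TPM and Lhx2-203, from the upstream start, held 34.5% and 38.4%. Both carry the homeobox motif, and together they took 84.8% and 85.1% of TPM. Lhx2-203 lacks the first 123 coding bases of Lhx2-201, of which the first 90 are given here (chr2:38351774-38351863, plus strand), with the first 20 coding bases of Lhx2-203 (chr2:38353314-38353333); capitals mark bases that code in Lhx2-201 and not in Lhx2-203.
Lhx2-201: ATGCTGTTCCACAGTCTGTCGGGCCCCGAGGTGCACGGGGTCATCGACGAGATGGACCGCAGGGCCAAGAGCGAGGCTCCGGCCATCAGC
Lhx2-203: atgccgtccatcagcagtga
In the second table Lhx2-201 held 53.3% and 46.8% and Lhx2-203 held 34.6% and 37.3%. Of 11 other LIM homeodomain genes 4 were detected, beside 59.6% of nuclear protein-coding genes. Lhx6 was highest at 27.8 TPM and Isl1 next at 4.44 TPM, and Lhx3 was listed at 0 in both libraries. Lhx2 stood above Lhx9, its nearest relative, by a log2 ratio of 3.68 and 4.02. The 6 LIM cofactors were all detected, from Lmo2 at 10.6 TPM to Lmo4 at 138 TPM, with Lmo3 at 130.3 TPM. Lmo4, which competes with LIM homeodomain proteins for the cofactor Ldb1, lay above Lhx2: the log2 ratio of Lhx2 over Lmo4 was -1.36 and -1.27.

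Foxp1 (ENSMUSG00000030067.17, chr6:98925338-99522721, minus strand) averaged 101 ± 5.50 TPM (SD, n = 2) over 31 annotated transcripts, of which 9 were at 0 TPM in both libraries of the first table. It stood above Foxp2, the deep layer relative, by a log2 ratio of 2.75 and 2.67, and above Foxp4 by 1.25 and 1.22. Foxp3, the regulatory T cell factor, was at 0.110 TPM. Foxp1-204, with 2115 coding bases, led the first table at 35.8% and 31.8% of TPM and took 70.3% of its counts on average. Foxp1-206, with 2019 coding bases, held 1.65% and 0.60% of TPM there and 15.8% and 10.8% in the second table. Its second-table counts were 2695 and 1854, beside 3085 and 3319 for Foxp1-204. In the first table its posterior SDs were 158 and 82.6 on counts of 215 and 81.0, so this split is loosely fixed. Transcripts from a start 407087 bases downstream of that of Foxp1-204, Foxp1-230 and Foxp1-225 among them, held 25.7% and 24.3% of first-table TPM. In the second table the leading transcript was Foxp1-218, a fragment of 607 bases, at 42.9 and 40.2 TPM, against 0 and 4.07 TPM in the first. Foxp1-229 held 12.7% and 11.7% of TPM, and Foxp1-225 held 11.8% and 8.49%, by the first table, and both were at 0 by the second. Foxp1 was the only one of the 9 to share 100-base windows with another gene: 1.66% of its windows also lie in other genes, chiefly Gm20696, an overlapping coding gene on the same strand at 3.61 and 5.58 TPM.

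Mdga1 (ENSMUSG00000043557.16, chr17:29827949-29970087, minus strand) averaged 46.2 ± 0.148 TPM (SD, n = 2), above Mdga2 at 27.4 and 32.6 TPM, though by less than a log2 ratio of 1 (0.74 and 0.49). Mdga1-208, with 2868 coding bases, led in both tables, at 68.3% and 73.2% of TPM by the first and 47.4% and 49.2% by the second. Mdga1-204, a processed transcript of 596 bases, held 4.94% and 0 in replicates 1 and 2 of the first table and 25.5% and 26.0% in those of the second. Non-coding transcripts held 18.6% and 17.6% of Mdga1 TPM by the first table, against 43.8% and 45.6% by the second table, and took 1.92% of its counts on average. Each of 7 listed partners and relatives was detected, and their median was 87.4 TPM. Nrxn2, a presynaptic neurexin, was highest at 374 TPM, and Mdga2 was lowest. Nlgn2, the neuroligin of inhibitory synapses that Mdga1 binds, stood at 123 and 128 TPM, and the log2 ratio of Mdga1 over Nlgn2 was -1.39 and -1.45.

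Across the 16 pairs of related genes compared within each library, 9 were apart by a log2 ratio of TPM + 1 of at least 1 in both libraries. The levels of the 9 genes overlapped those of other layer genes. The 12 other upper layer and callosal genes were all detected and had a median of 35.8 TPM; Mef2c and Ptn were highest at 549.97 and 316 TPM and Cpne8 lowest at 11.96 TPM. The 10 deep layer genes measured were likewise detected and had a median of 48.0 TPM, from Zfpm2 at 12.03 TPM to Crym at 69.1 TPM. Bcl11b, a factor of corticospinal neurons, stood at 64.5 and 62.2 TPM, and Pou3f2 lay below it by a log2 ratio of -1.46 and -1.29. Cux2 over Bcl11b was 0.27 and 0.53. Other cell types were also present: 8 interneuron markers had a median of 29.9 TPM, 6 astrocyte markers 49.3 TPM, 6 oligodendrocyte lineage markers 15.1 TPM, 6 microglial markers 5.76 TPM and 5 endothelial markers 8.95 TPM. Among 10 progenitor genes, 9 were detected and the median was 13.2 TPM; Fabp7 and Vim were highest at 565 and 80.8 TPM. Eomes, the intermediate progenitor factor and the lowest of these, stood at 2.44 and 0.61 TPM.

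**Figure D3:**
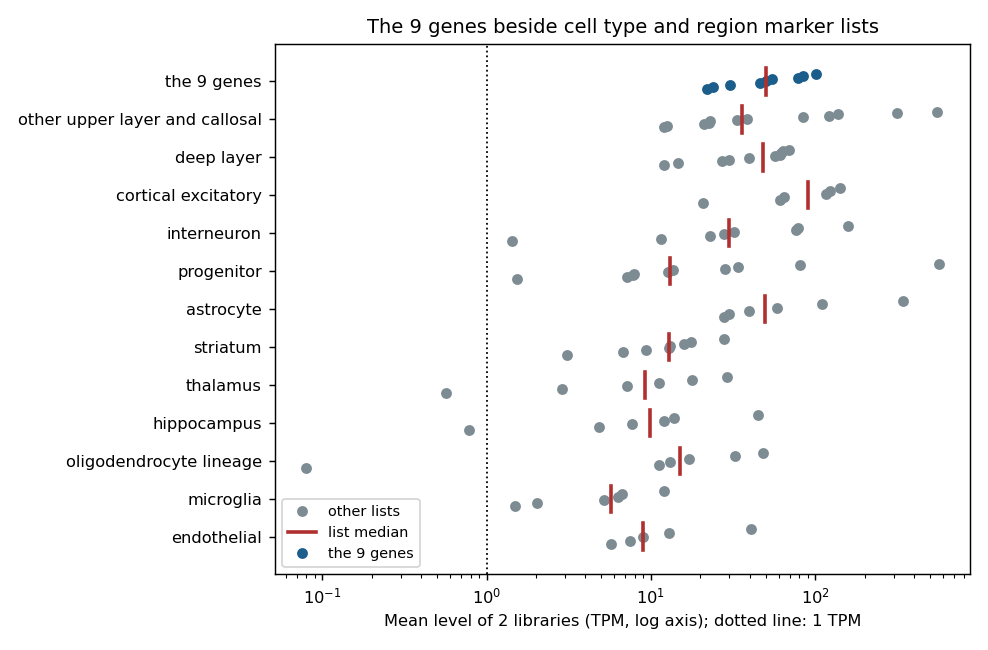
Mean level of each gene over 2 libraries (horizontal log axis, TPM) for the 9 genes (blue, top) and 12 lists of cell type and region markers (grey), with the median of each list as a red bar and 1 TPM as a dotted line. The 9 genes lie between 21.985 and 101 TPM, inside the range of the other upper layer genes (11.96 to 549.97 TPM) and overlapping that of the deep layer genes (12.03 to 69.1 TPM).

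Between replicate 1 and replicate 2, none of the 9 genes differed by a log2 ratio of TPM + 1 of at least 0.5, against 5.57% of detected genes, a share that would give fewer than 1 gene in 9. In TPM, Rorb differed most, at -0.29, and was the only one of the 9 past 0.25, which 23.2% of detected genes passed; Cux2 followed at -0.21. These sizes and their order depended on the scaling. Rorb was at -0.13 in CPM with TMM factors and -0.10 with spike-in scaling, Cux2 at -0.05 and -0.02, and Pou3f2, which was at -0.12 in TPM, at -0.04 and -0.01. Pou3f1, at 0.11 in TPM, differed most under both of these scalings, at 0.21 and 0.23. Rorb, Cux2 and Pou3f2 were below 0 and Pou3f1 above 0 under each scaling tried, whereas Cux1, Pou3f3, Lhx2, Foxp1 and Mdga1 changed sign. The median of all detected genes moved as well, at -0.06 in TPM, 0.02 with TMM factors and 0.04 with spike-in scaling.

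Set against counting error, the ratio of counts of replicate 1 over replicate 2, scaled by library totals, was 0.887 for Rorb (95% exact interval 0.852 to 0.923), 0.939 for Cux2 (0.906 to 0.973), 1.12 for Pou3f1 (1.05 to 1.21) and 1.06 for Foxp1 (1.03 to 1.10), and the interval included 1 for the other 5. With TMM factors, a scaling added here after the values were seen, the interval of Cux2 included 1 (0.935 to 1.003) and those of Cux1 (1.02 to 1.10), Pou3f3 (1.01 to 1.08) and Lhx2 (1.02 to 1.15) lay above 1, and with spike-ins the same genes fell on the same sides. Rorb stayed below 1 and Pou3f1 and Foxp1 above 1 under all 3 scalings, which rescale the same counts. In TPM, which also divides by length, Rorb (-0.29) and Pou3f1 (0.11) kept their sides as log2 ratios, but Foxp1 did not (-0.11).

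**Figure D4:**
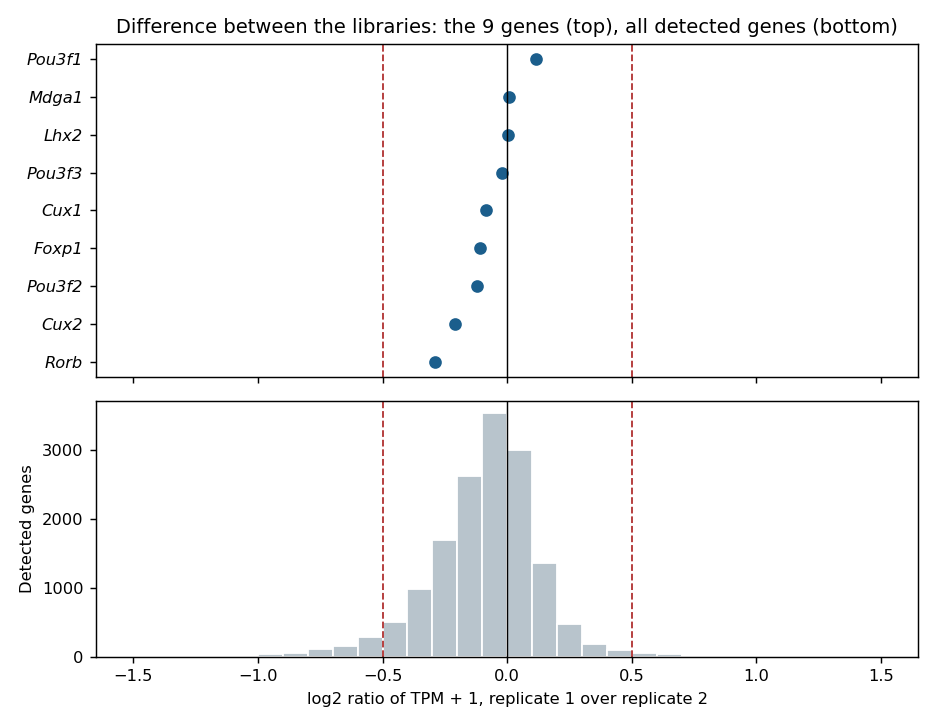
log2 ratio of TPM + 1 of replicate 1 over replicate 2 (horizontal axis) for the 9 genes (top) and, as a histogram, for the 15304 detected genes (bottom), with dashed lines at -0.5 and 0.5. The 9 genes lie between -0.29 (Rorb) and 0.11 (Pou3f1), inside the dashed lines.

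Retained-intron transcripts had a lower share of TPM in replicate 1 than in replicate 2 in 5 of the 6 genes that have them, against 70.3% of 7629 detected protein-coding genes with such a transcript annotated. The shares were 2.27% and 5.66% for Cux1, 13.7% and 16.8% for Cux2, 4.22% and 7.27% for Rorb, 9.40% and 11.7% for Lhx2, and 3.51% and 7.95% for Foxp1; Mdga1 was the exception at 3.38% and 1.66%. For all non-coding transcripts together the count was 4 of 6 genes, against 62% of 10308 genes with such transcripts. The median retained-intron share over 11873 detected protein-coding genes with several transcripts was 3.87% in replicate 1 and 5.36% in replicate 2. Named after their values were seen, 3 genes annotated on the same strand within the span of Cux1 or Foxp1 were lower in replicate 1 too. A430110C17Rik stood at 0.59 and 1.16 TPM, Gm38082 at 0.49 and 0.96 TPM and Gm20705 at 0.65 and 1.93 TPM. Of same-strand genes reaching beyond a span, Gm20696 at Foxp1 was also lower (3.61 and 5.58 TPM). AC122898.1 at Pou3f3 was higher (2.98 and 2.17 TPM). The median log2 ratio of all detected genes was itself below 0 in TPM, at -0.06. Coding transcripts of Cux2 summed to 54.6 and 55.7 TPM in replicates 1 and 2, and its non-coding ones to 23.4 and 34.6 TPM. For Foxp1 the sums were 78.3 and 78.2 TPM coding and 18.4 and 26.3 TPM non-coding. For Rorb the coding sum differed too, at 26.1 and 31.0 TPM, beside 1.15 and 2.43 TPM non-coding. By counts, the non-coding transcripts took 6.29% and 8.52% of Cux2. The part of the retained-intron difference in the levels of Rorb and Cux2 was not tested.

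The second table placed all 9 genes higher in TPM than the first, as it did most genes. The log2 ratio of the first over the second table had a median of -0.53 over the 9 genes and -0.53 over all detected genes; RNAs annotated as miscellaneous held 30.7% and 29.4% of all first-table TPM in replicates 1 and 2, against 0.00347% and 0.00463% by the second table. None of the 9 differed by a log2 ratio of at least 1 in both libraries, against 9% of detected genes. At a log2 ratio of 0.5, just under the median shift, 5 of the 9 passed, against 51.8% of detected genes. Relative to the median shift, Cux2 was 0.26 higher in the first table, Foxp1 0.20 lower (-0.20) and Mdga1 0.41 lower (-0.41), while the other 6 lay between -0.02 and 0.05. The order changed accordingly: the second table put Cux1 (114 ± 4.09 TPM) above Cux2 (102 ± 11.4 TPM) and Mdga1 (89.7 ± 0.946 TPM) above Lhx2 (79.9 ± 0.704 TPM) and Pou3f3 (70.2 ± 0.456 TPM; SD, n = 2 each). The leading transcript was the same in both libraries and both tables for 4 of the 6 genes with several transcripts, against 65.3% of 12401 detected genes (87.7% where the libraries of the first table alone are compared, as held for all 6); Cux2 and Foxp1 were the exceptions.

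**Figure D5:**
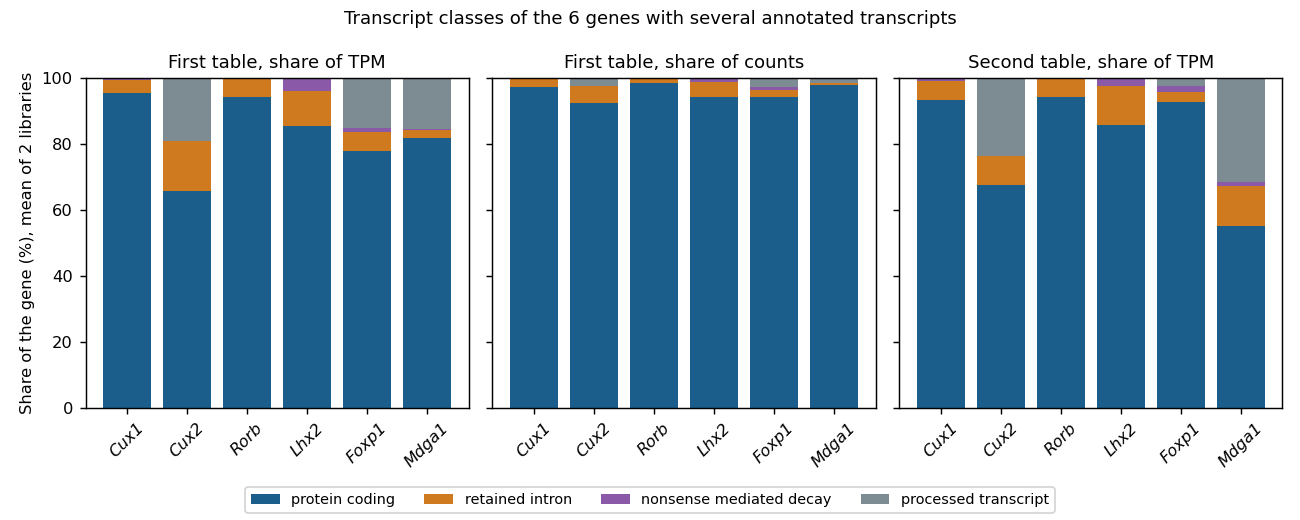
Share of each gene (percent, vertical axis, mean of 2 libraries) held by transcripts annotated as protein coding (blue), retained intron (orange), nonsense mediated decay (purple) and processed transcript (grey), by TPM and by counts in the first table and by TPM in the second. By counts, protein-coding transcripts held 92.6% (Cux2) to 98.5% (Rorb) of these 6 genes; by TPM, Cux2 was lowest at 65.8% by the first table and Mdga1 lowest at 55.3% by the second.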

How the data were processed

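Gene and transcript tables of 2 total RNA-seq libraries, made from 300 ng of RNA each with ERCC spike-ins, per the labels, were used. Reads aligned to the transcriptome (mm10, GENCODE M21) gave the first table and the reads themselves the second, per the descriptions deposited with the files; tools and versions were not stated in the sources used. The column names of the first table are those of RSEM and those of the second those of kallisto. The expected counts deposited by the authors divide reads shared between features, and were rounded for count ratios. The deposited TPM and FPKM values are scaled by effective length, per the file headers, which in the first table is 99 bases under the length of a transcript. The deposited percent values are each transcript's share of its gene's TPM, and the posterior SD of each count, held as a signal value, was read as the authors deposited it. The 96 spike-ins, 1 phiX entry and 26248 numbered entries stayed out of gene totals. The second table was summed per gene, and 86 annotated genes without an entry there were set to 0.

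The 9 genes, the marker lists and the rule for names (all 9 genes, fixed pairs, the 2 highest and the lowest of a list, transcripts at 10% of a gene or more in a library, and overlapping or nearest genes) were chosen with earlier results of these data known. Ratios used log2 of TPM + 1. Intervals are exact 95% Clopper-Pearson and, like the 3-count floor, cover counting error only. With 1 group no test was run; scripts were tested on simulated data. Alternative scalings, pseudocounts, tables and thresholds and each library left out were tried. Versions were Python 3.11.15, pandas 2.3.3, scipy 1.17.1, R 4.3.3 and edgeR 4.0.16 (TMM factors only). Reads of both parental alleles were matched to the mm10 reference, and the effect of this was not tested. Some listed genes and pairs are counted but not reported by name here.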

Additional observations from a re-analysis of the deposited data

How the results depend on the processing

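No paired analysis was possible because the libraries form 1 group. Of 9 genes, all 9 stayed detected in the second table, with FPKM, at a TPM of at least 10 and with either library left out. Their median level of 50.1 TPM was 79.9 TPM in the second table, 32.5 as FPKM and 98.6 TPM over nuclear protein-coding genes alone, and its log2 ratio to the median of all genes was 1.79 over detected genes and 4.79 over all genes with any count. At a log2 ratio of 0.25 in place of 0.5, 1 gene in place of 0 differed between replicates, and at 0.5 in place of 1, 5 genes in place of 0 differed between tables, where 51.8% of detected genes did so and the median shift of -0.53 is itself past that size. Intervals of the count ratio left out 1 for 4 genes by library totals and for 6 with TMM factors or spike-ins, which were added after the values were seen. With a share of at least 50% asked of the leading transcript, 1 gene in place of 4 kept 1 leading transcript, because the rule asks more. The related pairs apart numbered 9, and 9 or 10 with 1 library left out. Levels near the 3-count floor cannot be read as absence. For Rorb-201 the posterior SDs of 35.98 and 42.5 on counts of 0 are wider than this floor, so its 0 cannot be read as absence either.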
